A study of Drosophila melanogaster with 2 samples.

Results

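The 9 genes described here encode the circadian clock of the fly and the kinase and photoreceptor that act on it: vri, Pdp1, sgg, per, tim, Clk, cyc, cwo and cry. They were taken by symbol from the Ensembl release 115 annotation (BDGP 6.54) and are 9 of its 13981 protein-coding genes. The question was where the tagged transcription factor Mio was recorded along these genes, and at which of their alternative promoters. The assay was chromatin immunoprecipitation sequencing (ChIP-seq), and the material was whole Drosophila melanogaster larvae at the wandering third-instar stage, males and females pooled and of unknown age. Every animal came from a line that stably made Mio, the older name of Mondo, with green fluorescent protein (GFP) at its C-terminus, and an antibody to GFP was used for the pull-down; the promoter that drives the fusion is not named in the labels. The 2 biological replicates (numbers 5 and 1) form 1 group with no second condition, so there is no comparison of treatments and no test was run. Because whole larvae were used, a summit cannot be assigned to clock neurons or to any other tissue.

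The fly clock is a transcription loop. The proteins encoded by Clk and cyc pair up, bind E-boxes such as CACGTG, and activate per and tim, whose products return to the nucleus and block that activation. In an interlocked loop vri represses Clk and Pdp1 activates it, cwo represses at E-boxes, sgg phosphorylates the tim protein, and cry is the blue-light photoreceptor that leads to its breakdown. Mondo and its partner, known as Mlx or bigmax, are basic helix-loop-helix leucine zipper proteins that respond to sugar and also bind DNA at E-boxes, often as a spaced pair.

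The positions are dm6 summits, each the single base at which the authors placed the top of a peak. Bound promoters are those with a transcription start site (TSS) of a coding transcript at most 500 bp from a summit of the optimal list, the authors' reproducible set of 1146 peaks. The reach of a gene ran from 2000 bp before it to its end. Signal values are the authors' own, on a scale that the labels and deposited notes used here do not state, so they were read only as ranks within a list, rank 1 being the highest. The pooled list (28423 peaks) and the lists of replicate 5 (29999 peaks) and replicate 1 (30000 peaks) are relaxed lists that hold background as well as peaks. How many reads stand behind each list is unknown.

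Optimal summits were recorded at vri, Pdp1 and sgg. The 3 promoter sites are shown as the 101 bp centred on each summit, followed by the strongest intronic site of vri, because they carry the finding. Each is read 5′ to 3′ on the strand of its gene from the Release 6 genome (dm6, RefSeq). Capitals mark the canonical E-box CACGTG or the related E-box CACGTT, searched on both strands.
Pdp1 promoter, chr3L:7867505-7867605, minus strand: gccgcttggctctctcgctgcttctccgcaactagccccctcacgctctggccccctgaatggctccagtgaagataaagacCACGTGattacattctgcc
vri promoter, chr2L:5305401-5305501, plus strand: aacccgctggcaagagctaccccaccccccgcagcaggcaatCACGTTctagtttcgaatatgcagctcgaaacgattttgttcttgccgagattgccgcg
sgg promoter, chrX:2646381-2646481, plus strand: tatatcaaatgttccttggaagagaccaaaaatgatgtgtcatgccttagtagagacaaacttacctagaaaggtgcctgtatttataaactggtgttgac
vri intron, chr2L:5293313-5293413, plus strand: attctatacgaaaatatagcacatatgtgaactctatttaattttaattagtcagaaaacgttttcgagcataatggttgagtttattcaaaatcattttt

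The Pdp1 site held CACGTG and the vri promoter site held CACGTT, while the sgg promoter site and the vri intron site held neither. The base composition differed as well. G and C made up 58.4% of the Pdp1 window and 55.4% of the vri promoter window, against 36.6% at sgg and 24.8% at the vri intron. Over all 1146 optimal summits the median was 36.6%, with quartiles of 29.7% and 43.6%.

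Of the 9 clock genes, 3 (33.3%) had a bound promoter, against 6.17% of all protein-coding genes. The same 3 were the ones with an optimal summit in reach, with 5 summits in all, against 9.56% of all genes. These 3 genes are also the 3 longest of the 9, at 22.3 kb for vri, 55.9 kb for Pdp1 and 45.6 kb for sgg, and each starts from at least 3 promoters. Among genes whose reach was at least as long as that of vri, 23.1% had an optimal summit in reach, and among genes with 3 or more promoters 17.0% had a bound promoter. Counted by single promoter, 3 of the 26 promoters of the clock genes (11.5%) were bound, against 5.44% of the promoters of all genes. With 9 genes, these shares describe the list and do not set it apart from other lists.

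In the optimal list, the summits at the 3 promoters lay at similar distances from their TSS. They were 199 bp upstream at vri, 186 bp upstream at Pdp1 and 206 bp upstream at sgg. The matched summits lay 188, 142 and 144 bp upstream in replicate 5, and 229, 177 and 205 bp upstream in replicate 1. These distances were not set against those at other bound promoters. No TSS of another protein-coding gene lay within 500 bp of any of the 5 optimal summits. All 5 had a summit within 100 bp in both replicates, as did 90.2% of all optimal summits, but their ranks in the replicates differed.

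**Figure D1:**
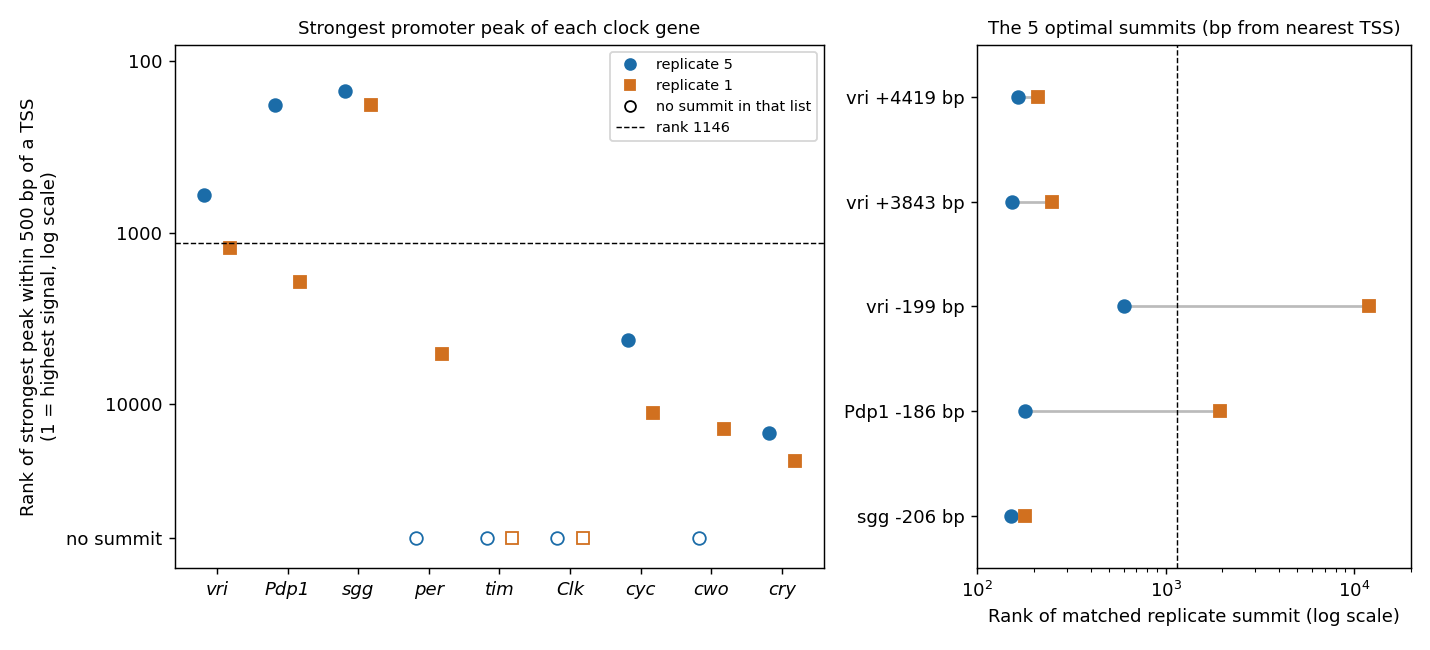
Left, rank by signal of the strongest peak within 500 bp of any TSS of each clock gene in replicate 5 (circles) and replicate 1 (squares), on a log axis with the highest signal at the top; open symbols mark genes with no summit there. Right, ranks of the replicate summits matched to the 5 optimal summits; sgg and the intronic vri summits rank between 150 and 248 in both replicates, while the vri promoter ranks 600 in replicate 5 and 12068 in replicate 1. The dashed line is rank 1146.

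vri (FBgn0016076, 2L, 5288944 to 5311223, plus strand) encodes a basic leucine zipper repressor. It has 5 coding transcripts from 3 promoters, and it held 3 optimal summits, a number reached or passed by 43 of 13968 nuclear genes (0.308%). That share takes no account of gene length, and it was not computed for long genes alone. Any optimal summit, whatever the number, was in reach of 23.1% of the 918 genes with at least as long a reach, against 9.56% of all genes. The bound promoter was the most downstream of the 3, shared by transcripts RA, RD and RF, which encode the longer protein of 729 codons. Its optimal peak (2L, 5305271 to 5305630) had a signal of 75.1 at rank 1086 of 1146, close to the lowest signal in the list, 73.6. The matched peak ranked 600 in replicate 5 (signal 62.2) but 12068 in replicate 1 (signal 11.7). Within 500 bp of this TSS the best peak of replicate 1 lay 58 bp downstream at rank 6230. A high rank at this promoter was thus seen in replicate 5 alone.

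The other vri promoters were not in the optimal list. The start of transcript RC, which encodes a protein of 610 codons, had a pooled peak just outside it, 261 bp upstream with a signal of 70.4 at rank 1253. Replicate 1 had a matched summit at rank 1225, 301 bp upstream, which was its highest-ranked promoter peak at vri. Replicate 5 had no summit within 100 bp of that pooled summit; its peak at this start lay 76 bp upstream at rank 1304, beside a weaker pooled summit at rank 5109. The most upstream start, of transcript RE, also encodes 610 codons and had a pooled peak of signal 24.0 at rank 11032, rank 4634 in replicate 5 and no summit in replicate 1.

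The strongest vri summits lay in an intron between the RE and RC starts, away from any start. Summit 5293363 (peak 2L, 5293277 to 5293412) had a signal of 178 at rank 171, and ranked 165 in replicate 5 and 210 in replicate 1. Summit 5292787 (peak 2L, 5292726 to 5292879) had a signal of 169 at rank 191, and ranked 152 in replicate 5 and 248 in replicate 1. They are 576 bp apart and lie 4419 and 3843 bp downstream of the RE start. In the optimal list both are narrow, at 136 and 154 bp, while the peak at the vri promoter has the width of 360 bp that is the most common there. The sgg promoter peak was also narrower than that, at 242 bp. The replicate lists differed: the matched peaks were 384 and 114 bp wide in replicate 5. In replicate 1 both had its most common width, 324 bp. Both intronic summits sit in sequence poor in G and C (24.8% and 27.7%). Unlike the promoter summit, both ranked high in each replicate.

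Pdp1 (FBgn0016694, 3L, 7811458 to 7867369, minus strand) encodes a basic leucine zipper activator in several isoforms made from alternative starts, and the isoform called epsilon is the one tied to the clock. The annotation names transcripts by letter and does not say here which letters encode it. Of its 4 promoters, the bound one was the most upstream, shared by RF and RO, which encode proteins of 250 and 264 codons. The optimal peak (3L, 7867375 to 7867734) lay in intergenic sequence, with a signal of 131 at rank 320. It ranked 180 in replicate 5 (signal 103) and 1933 in replicate 1 (signal 24.1), outside the 1146 strongest peaks of replicate 1.

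The longest Pdp1 proteins, of 633 and 647 codons, start from RD and RJ, 34296 bp into the gene, and that promoter had no summit within 500 bp in any of the 4 lists. The start shared by 7 transcripts of 232 to 284 codons had no pooled summit. Its strongest peaks lay apart, 128 bp downstream at rank 5587 in replicate 5 and 456 bp downstream at rank 2687 in replicate 1. The start of RC and RL, with 570 and 581 codons, had a pooled peak of signal 16.1 at rank 22873, a best peak at rank 19893 in replicate 5 and no summit in replicate 1. So the promoters of the long Pdp1 proteins had weak peaks or none, and the bound promoter belongs to short ones. Replicate 1 held another Pdp1 summit among its strongest, in an intron at 7851041 with rank 846, which ranked 10277 in replicate 5 and 2008 in the pooled list.

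sgg (FBgn0003371, X, 2633952 to 2679553, plus strand) encodes the fly glycogen synthase kinase 3, which acts in Wingless signalling as well as on the clock. It has 19 coding transcripts from 10 promoters, more than any other gene of the 9, and only 1 of these promoters was bound. That was the start of RQ, 12685 bp into the gene, whose protein of 1168 codons is the longest of sgg. The optimal peak (X, 2646334 to 2646575) lay in an intron of the transcripts that start farther upstream, with a signal of 179 at rank 170. It ranked 150 in replicate 5 (signal 112) and 179 in replicate 1 (signal 76.7). It was the only clock gene promoter among the 1146 strongest peaks of both replicates.

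Peaks at the other sgg starts were weaker. The neighbouring RR and RG starts shared a pooled peak of signal 48.6 at rank 2748, 207 bp upstream of the RR start, whose matched summits ranked 2982 in replicate 5 and 10218 in replicate 1. The strongest replicate 1 peak near these starts was another one, 169 bp downstream of the RG start at rank 2833. The RD and RP start, for proteins of 1067 and 1126 codons, had a pooled peak of signal 30.3 at rank 7035, rank 5316 in replicate 5 and no summit in replicate 1. The start used by 6 transcripts of 514 to 575 codons had no pooled summit and a peak at rank 17131 in replicate 5. Pooled peaks at the RH start and at the start of RK, RO and RS were at ranks 24286 and 18725, and the RN start had a peak in replicate 5 alone, at rank 21141. The RC start and the start of RM and RT had no summit in any list. A further pooled summit 920 bp downstream of the RQ start missed the optimal list narrowly, with a signal of 71.8 at rank 1201. It ranked 1820 in replicate 5 and 959 in replicate 1.

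**Figure D2:**
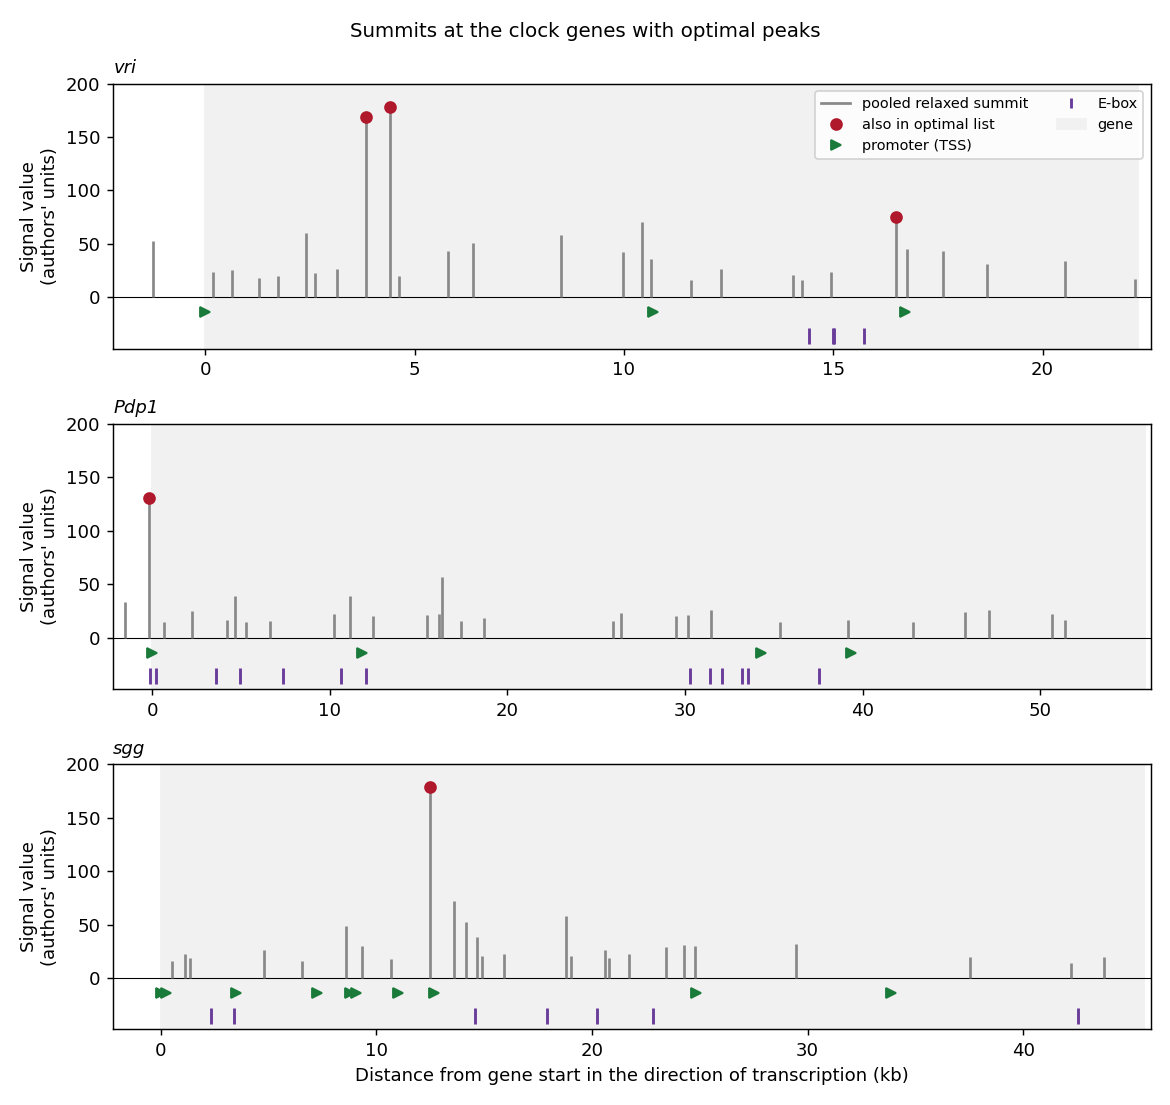
Pooled relaxed summits along vri, Pdp1 and sgg, with the authors' signal value on the y axis and the distance from the gene start in the direction of transcription (kb) on the x axis. Red dots mark the 5 summits also in the optimal list, green arrowheads the promoters, purple ticks CACGTG and grey shading the gene; the strongest vri summits stand between promoters, and the Pdp1 and sgg optimal summits stand just before a promoter.

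The 6 other genes, among them the core activators and repressors of the loop, had no optimal summit. For per and tim, the E-box-driven repressors of the loop, there was little in any list. per (FBgn0003068, X, 2685580 to 2692780) had a single pooled summit in reach, 48 bp upstream of its TSS, with a signal of 20.5 at rank 14938. Replicate 5 had none in the reach of per, and replicate 1 had its best 83 bp upstream at rank 5112. tim (FBgn0014396, 2L, 3493986 to 3508119) had no summit within 500 bp of any of its 3 promoters in any list. Its single pooled summit in reach lay in an intron with a signal of 14.2 at rank 27913, near the bottom of the list.

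Clk (FBgn0023076, 3L, 7763233 to 7775603) encodes the activator that vri and Pdp1 act on. It had no summit in reach in the optimal list, the pooled list or replicate 5. Replicate 1 had 4, the best at rank 17075 and 1028 bp upstream of the gene. Of 1635 genes with a reach at least as long, 120 (7.34%), Clk included, had no pooled summit. Its partner cyc (FBgn0023094, 3L, 19813770 to 19815938) had a pooled summit 461 bp downstream of its TSS, signal 27.8 at rank 8330. The best cyc peak lay 313 bp downstream at rank 4200 in replicate 5 and 461 bp downstream at rank 11195 in replicate 1.

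cwo (FBgn0259938, 3R, 10388258 to 10400752) encodes a basic helix-loop-helix repressor that itself binds E-boxes. Its TSS had a pooled summit 36 bp downstream with a signal of 20.6 at rank 14743, no summit in replicate 5 and rank 13836 in replicate 1. The strongest cwo summit was intronic, 2865 bp downstream of the TSS, with a pooled signal of 56.0 at rank 2055, and it ranked 1231 in replicate 5. The strongest cwo summit of replicate 1 lay 3033 bp downstream of the TSS at rank 4521. cry (FBgn0025680, 3R, 19212154 to 19215442) had a pooled summit 201 bp upstream of its TSS with a signal of 26.1 at rank 9388. It ranked 14571 in replicate 5, and the best promoter peak of replicate 1 ranked 21235. Among the promoter peaks of these 6 genes, the highest rank in either replicate was 4200, at cyc.

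**Figure D3:**
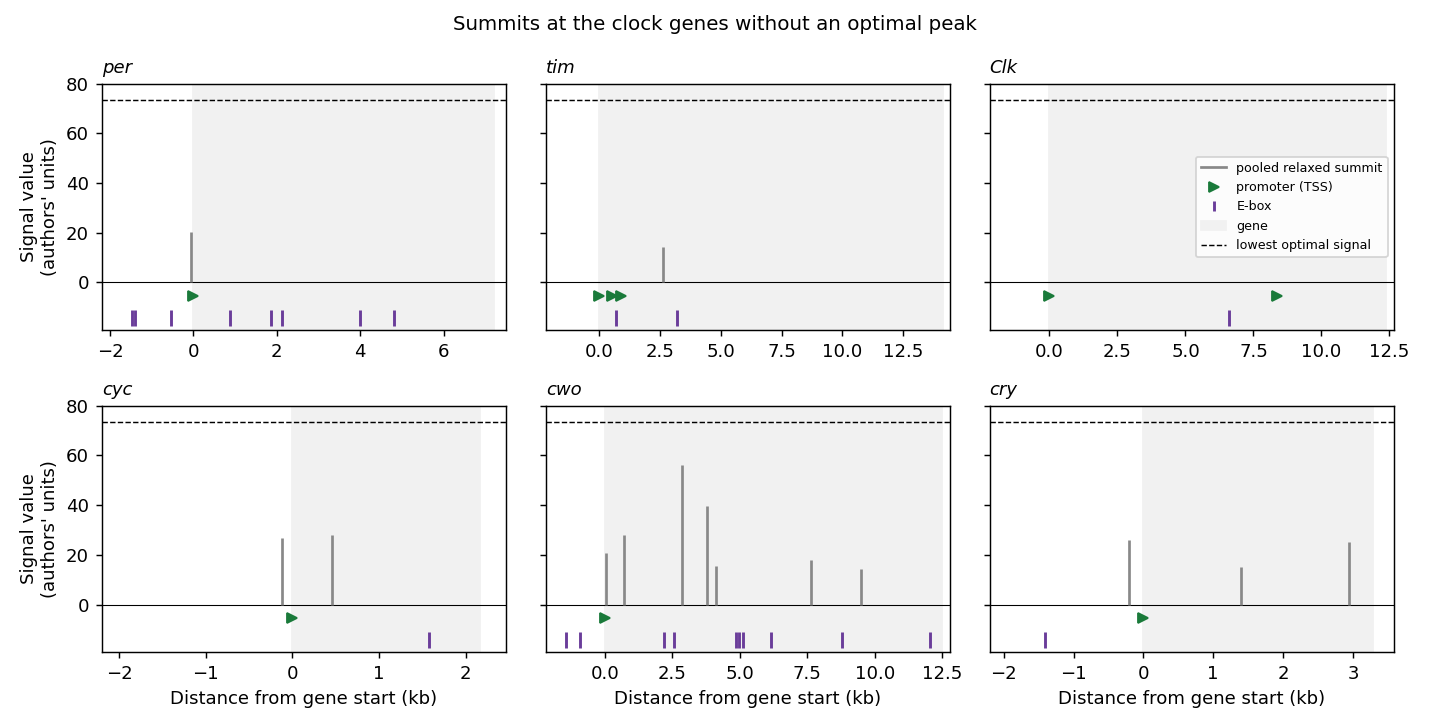
Pooled relaxed summits along the 6 clock genes without an optimal peak, drawn as in the map of the bound genes. The dashed line is the lowest signal in the optimal list, 73.6; every summit stays under it, and the tallest, in the intron of cwo, is at 56.0.

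Presence in a relaxed list was common in the genome. A pooled summit lay within 500 bp of a TSS in 7 of the 9 clock genes, against 47.5% of all genes, and in reach in 8 of 9, against 63.7%. These shares of all genes take no account of gene length. Of genes with a reach at least as long as that of cyc, the shortest of the 9, 22.4% had no pooled summit in reach. For genes with a reach at least as long as that of vri it was 5.66%. Ranked by signal, the strongest 1146 peaks of each replicate gave a stricter view. In replicate 5 they included a promoter peak at vri, Pdp1 and sgg, 3 of 9, against 6.25% of all genes. In replicate 1 they included 1 of 9, sgg, against 5.64%. All 3 genes had such a peak somewhere in reach in both replicates, but at Pdp1 it was not the same peak. The Pdp1 promoter peak ranked 180 in replicate 5 and 1933 in replicate 1. The intronic Pdp1 peak ranked 846 in replicate 1 and 10277 in replicate 5. sgg and per lie on X, and X held 22.4% of the peaks of replicate 5 and 12.5% of those of replicate 1. Among the strongest 1146 peaks it held 15.7% in replicate 5 and 16.9% in replicate 1. The reach of sgg had 35 summits in replicate 5 and 12 in replicate 1, while that of vri, on 2L, had 28 and 27. The part of this difference between the lists in the sgg count was not tested.

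The density of summits differed between the clock genes. The pooled list held 63.2 summits per 100 kb over the reach of vri, Pdp1 and sgg, 22.0 over that of the 6 other clock genes and 24.1 over that of all nuclear protein-coding genes. The bound genes were picked by their optimal summits, which are also in the pooled list. Their higher pooled density is therefore not separate support for binding there. vri stood out within the 9 at 115 per 100 kb, which gave it place 3 of 918 genes with a reach at least as long, whose median was 18.9. Pdp1, at 48.3, took place 24 of 267 and sgg, at 54.6, place 28 of 373. In replicate 5, vri was at 115, Pdp1 at 53.5 and sgg at 73.5, against 26.0 over all nuclear protein-coding genes. In replicate 1, vri was at 111 and Pdp1 at 50.1, but sgg was at 25.2, close to the 24.5 over all nuclear genes. In the pooled list cry (56.7), cwo (48.3) and cyc (48.0) had densities like those of Pdp1 and sgg over much shorter reaches, from 3, 7 and 2 summits. per and tim were at 10.9 and 6.2, below the medians of 23.1 and 20.6 for genes with a reach at least as long as theirs. Since a relaxed list holds background, these densities do not count binding sites.

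The reach is mostly gene body by its definition, so most summits counted in it fall inside genes. Of the 96 pooled summits in the reach of the clock genes, 73 were in introns, 7 in coding exons, 10 in untranslated exons and 6 in intergenic sequence. Of the same 96, 28 (29.2%) had a summit within 100 bp in both replicates, against 23.5% of the pooled summits over all nuclear genes. A match in replicate 5 alone was seen for 34, in replicate 1 alone for 23 and in neither for 11. By gene, 10 of the 28 vri summits, 8 of the 28 at Pdp1 and 7 of the 26 at sgg were matched in both, but none of the summits at per, tim or cyc was.

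The canonical E-box was frequent in these genes and was seldom at a summit. There were 47 copies of CACGTG in the reach of the 9 genes, 24.3 per 100 kb, against 12.6 per 100 kb over all nuclear protein-coding genes. G and C made up 41.4% of the reach of the clock genes and 42.5% of that of all genes. The copies were most dense at per (8 copies, 86.9 per 100 kb, in a reach of 54.3% G and C) and cwo (10 copies, 69.0 per 100 kb). Pdp1 had 13 (22.4 per 100 kb), vri 4 (16.5), sgg 7 (14.7) and tim 2 (12.4). Clk, cyc and cry had 1 copy each (6.96, 24.0 and 18.9 per 100 kb). Introns held 33 of the 47, and only 5 lay within 500 bp of a TSS.

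Within 50 bp of an optimal summit there was 1 of the 47 (2.13%), at the Pdp1 promoter, against 0.0958% of the 12531 copies over all nuclear genes. Within 50 bp of a pooled summit there were 2 (4.26%), against 2.47%. The optimal list had no summit within 5000 bp of 38 of the 47, and the median distance to the nearest pooled summit was 761 bp. Read from the summits, 1 of the 5 optimal summits of clock genes had CACGTG within 50 bp, against 15 of all 1146 (1.31%), and 1 had CACGTT, against 2.71%. None of the 5 had the paired E-box, meaning 2 copies of CACGTG separated by 5 bp with up to 2 mismatches in the 12 fixed bases, which 0.262% of all optimal summits had. A copy of these letters is a description of the sequence and not a site of binding.

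**Figure D4:**
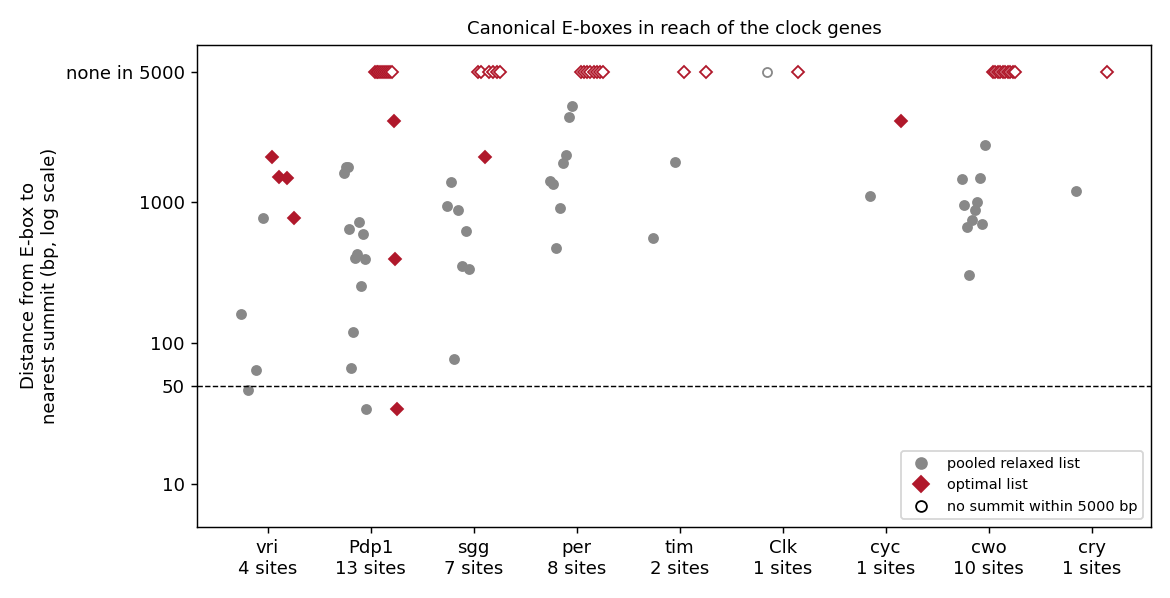
Distance (bp, log axis) from each of the 47 CACGTG copies in reach of the clock genes to the nearest pooled summit (grey circles) and the nearest optimal summit (red diamonds), by gene; open symbols have no summit within 5000 bp. The dashed line is 50 bp; the Pdp1 promoter copy alone lies under it for the optimal list, and the copies at per and cwo lie 306 bp or more from any pooled summit.

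Copies at per, vri and Pdp1 are shown with 12 bp on each side, since they stand upstream of a start or close together, with CACGTG in capitals on the strand of the gene. The first lies in the upstream region of per that is known as its circadian regulatory sequence.
per upstream, chrX:2685038-2685067, plus strand: aaagccgccgctCACGTGgcgaactgcgtg
vri upstream pair, the 5′ copy, chr2L:5303925-5303954, plus strand: gattggtccggaCACGTGaatcgggcgact
vri upstream pair, the 3′ copy, chr2L:5303943-5303972, plus strand: aatcgggcgactCACGTGgatatcgcgcag
Pdp1 before RD and RJ, chr3L:7833817-7833846, minus strand: gtgtgtccgcaaCACGTGcttagaactgtg

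The per copy lies 528 bp upstream of the TSS, 479 bp from the nearest pooled summit and 259 bp from the nearest summit of replicate 1. The vri pair, with 12 bp between the copies, lies 1711 and 1693 bp upstream of the bound start. A pooled summit of signal 23.6 at rank 11424 was 47 bp from the 5′ copy of the pair, and the optimal summit at that start was 1511 bp away. At Pdp1, 5 copies lie 758 to 4009 bp upstream of the RD and RJ start, where no list had a promoter summit. Their closest pooled summits were 67 to 1790 bp away, the nearest at rank 9681. The copy at the bound Pdp1 promoter lies 151 bp upstream of the TSS and 34 bp from the optimal summit.

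A list of 18 other clock regulators (kinases, phosphatases, degradation factors, neuropeptide signalling and light input) gave a wider view of the pathway, and 17 matched a single annotated gene by symbol. The symbol dbt matched no single gene, so that regulator was not examined. Of the 17 matched genes, 2 had a bound promoter, against the 6.17% of all genes given above, 4 had an optimal summit in reach, against 9.56%, and 13 had a pooled promoter summit, against 47.5%. These shares of all genes take no account of gene length. Among genes with a reach at least as long as that of vri, 23.1% had an optimal summit in reach. The bound promoters were both of subunits of protein phosphatase 2A, which removes phosphate from the per protein. mts, the catalytic subunit, had an optimal signal of 137 at rank 291 and ranked 449 in replicate 5 and 256 in replicate 1. tws, a regulatory subunit, had an optimal signal of 76.2 at rank 1046 and ranked 2074 in replicate 5 and 1732 in replicate 1, outside the strongest 1146 in both. The further genes with an optimal summit in reach were wdb, another regulatory subunit of the phosphatase, and norpA, a phospholipase C of the light response.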

How the data were processed

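ChIP-seq peak lists of both replicates were used. Per the text files deposited with them, each relaxed list was called on 1 replicate's alignments, the pooled list on both, against the same control alignment, and the optimal list was derived from them by irreproducible discovery rate. No source used here names the aligner, caller or threshold. The deposited signal value ranked peaks within a list. All 1146 optimal peaks shared the highest deposited −log10 q-value, so it did not rank them; 29 were mitochondrial and kept in the ranks. Lists in dm3 were not used here.

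Positions (1-based) were set against the RefSeq Release 6 genome and Ensembl release 115 with Python 3.11.15, pandas 2.3.3 and numpy 2.4.6. TSSs within 100 bp were 1 promoter; a match was a summit within 100 bp; sequences were searched within 50 bp. The searches were tested on simulated peaks and planted motifs. All members, every optimal summit of theirs and bound regulators are named. The members and lists were chosen with earlier results of these data known. No depth or interval was available. Alternatives changed the TSS distance, reach, match, window, list and replicate.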

Additional observations from a re-analysis of the deposited data

How the results depend on the processing

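The 8 counts described were recomputed under 45 alternatives, and 36 stayed within 1.5 times the value given. Some alternatives could hardly differ, so these 36 are not all separate checks. The strongest pooled peaks nearly repeat the optimal list, since the optimal summits of clock genes had the same signals in both. The vri promoter peak, for example, ranked 1086 in the optimal list and 1085 in the pooled list. Requiring the TSS to lie under the whole peak left 0 clock genes with a bound promoter, against 3, and 1 other regulator, against 2; the 3 promoter summits lay 186 to 206 bp from their TSS. With the strongest peaks of a single replicate, the bound clock promoters were 1 to 3, the other regulators 1 to 2 and the CACGTG copies near a summit 0 to 1. Replicate 1 alone kept sgg, and its 2 regulators were mts and Atx2, an RNA-binding protein gene named after its values were seen, in place of tws. The regulators fell to 1 with a TSS distance of 200 bp and with the stronger 573 optimal peaks, and the replicate 1 promoter count to 0 at 200 bp. A window of 25 bp left 0 CACGTG copies near an optimal summit. Within the 1.5-fold limit, a distance of 200 bp lost sgg, the stronger 573 peaks lost the vri promoter, a reach of the gene body alone lost Pdp1, and a reach of 5000 bp added cyc. Ranking by the −log10 q-value with ties ordered by signal, added after the data were seen, moved no count. It was not a separate check. The highest −log10 q-value was shared by 1165 peaks of replicate 5 and 1123 of replicate 1, which were then ordered by signal. Ranking by p-value was not run, since that column holds no values. No paired analysis was possible because there is 1 group. Read depth, unknown here, limits how far low ranks can be read.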

Other observations

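Some clock genes lie near each other or near optimal peaks outside their reach. The per gene starts 6027 bp beyond the end of sgg, and the strongest nuclear optimal summit (X, 2703886, signal 770) lies 11106 bp beyond the end of per, outside the reach of both. Pdp1 and Clk lie 35855 bp apart on 3L. An optimal summit also lies 2200 bp before cyc (3L, 19818138, signal 75.9, rank 1059), where it is within 500 bp of the starts of Deaf1, a transcription factor gene, and Fibp; it ranked 1874 in replicate 5 and 1591 in replicate 1.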
